A study of Rattus norvegicus with 71 samples.

Results

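Aortas of 24-month-old rats were compared with aortas of 6-month-old rats of the FBN strain, the cross of Fischer344 and Brown Norway rats, on 12 Affymetrix arrays (6 at each age) of the 71 in the series. The arrays were chosen by their labels alone: strain F344xBN, thoracic artery, and an age of 24 or 6 months. The series title calls this vessel the aorta. The other arrays were 6 FBN aortas of 15 months, which entered the fit to estimate the spread, 17 aortas of the inbred Brown Norway (BN) strain, and 36 mesenteric arteries of both strains. The labels name no treatment that separates the groups. They cite a model of collateral arteries after an occlusion but tie no vessel to it, and they do not say whether each array is a separate animal, so the p-values measure the spread between arrays.

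The wall of the aorta is mostly smooth muscle held in layers of elastin and collagen, lined by endothelium and wrapped in an adventitia of fibroblasts, nerves and immune cells. Around the thoracic aorta of rodents lies perivascular fat that resembles brown fat, a tissue that burns fatty acids for heat and also makes them from glucose. A dissected aorta carries more or less of this fat, and an array then reads wall and fat together. In such bulk samples fewer cells of a type and less RNA per cell cannot be told apart.

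The labelled tissue was checked by its markers. Acta2, the actin of smooth muscle, had a signal of 13308 to 53589 in the 24-month arrays (median 37044) and of 9374 to 49937 in the 6-month arrays (median 41926). Ucp1, the uncoupling protein that defines brown fat, had 39405 to 117799 at 24 months (median 60247) and 40684 to 131051 at 6 months (median 55156). Markers of both wall and brown fat were thus bright in every array, and their ranges at 24 and 6 months largely overlapped. Tissue mass, given by the labels, averaged 18.55 ± 7.46 mg at 24 months and 18.62 ± 8.92 mg at 6 months (SD, n = 6 each; exact permutation test of the difference, two-sided, p = 0.981, where the smallest possible p is 0.00216). A brown adipocyte score, the mean log2 signal of 9 marker genes, followed the mass over the 18 FBN aorta arrays (Pearson r = 0.773, permutation p = 0.00034, adjusted over 2 relations 0.00068; Spearman rho = 0.725, permutation p = 0.00092). Within ages r was 0.818 at 6 months (exact p = 0.0722), 0.894 at 15 months (exact p = 0.0167) and 0.540 at 24 months (exact p = 0.269; n = 6 each), and without the 2 arrays farthest from the median mass it was 0.854. A smooth muscle contractile score of 17 genes fell into separate sets, 5 arrays at 12.3 to 13.4 and 13 at 14.0 to 14.5. Its pooled r with mass, the other of the 2 relations, was -0.700 (permutation p = 0.00116) and mixes the gap between the sets with any trend. Within those 13 arrays the contractile score had r = -0.23 with mass (permutation p = 0.449). They were chosen on this score, which narrows its range, so this r cannot show whether the score follows mass. The brown adipocyte score had r = 0.578 (permutation p = 0.0387) and rho = 0.544 (p = 0.0568) there. The 5 muscle-poor arrays, called fat-rich below, were 24-month array 1, 15-month arrays 1 and 2, and 6-month arrays 1 and 2. They were set apart by the contractile score alone. The brown adipocyte score of 24-month array 5, 13.44, exceeded that of 15-month array 1, 13.16. Its contractile score of 14.01 left array 5 in the larger set. Of the 12 arrays compared, 1 at 24 months and 2 at 6 months were therefore in the fat-rich set. Some of the results are also given without these 3. Mass entered the fit as a linear term.

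**Figure D1:**
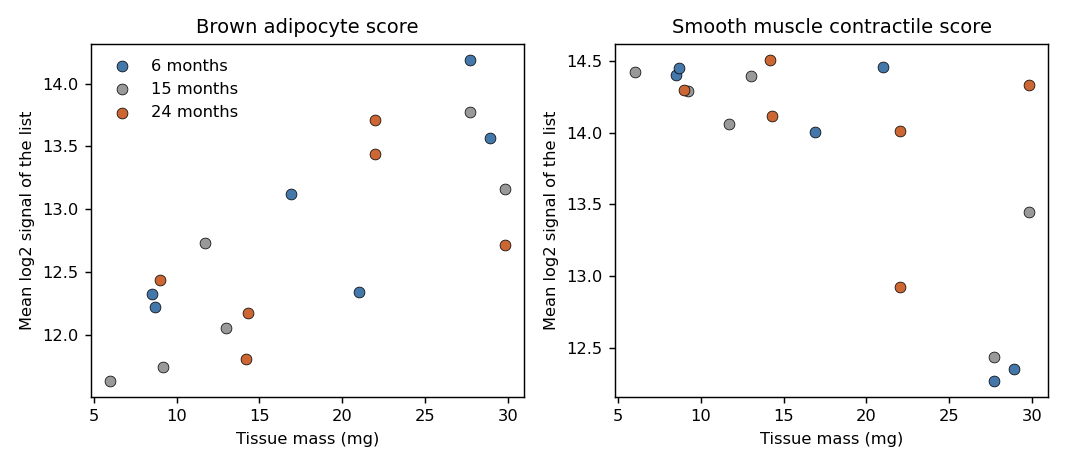
Mean log2 signal of the brown adipocyte list (left) and the smooth muscle contractile list (right) against tissue mass in mg, one point per FBN aorta array, coloured by age. The brown adipocyte score has a Pearson r with mass of 0.818 at 6 months, 0.894 at 15 months and 0.540 at 24 months, where the heaviest sample does not have the highest score, and 5 arrays, 1 of them of 24 months and 2 of 6 months, lie apart with contractile scores of 12.3 to 13.4.

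Of 4 measures of array quality 0 passed the test between the ages. The log2 array median, the log2 ratios of 3-prime over 5-prime signal of Gapdh and of Actb, which are higher where RNA is degraded, and the signal of poly-A spike-ins added before labelling each gave an adjusted p of 0.933 (exact permutation tests, two-sided, adjusted over 4 measures). The spike-in signal was 11.63 on the log2 scale in 24-month array 3 and at most 10.2 in the other 17 FBN aorta arrays.

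Of 15521 probe sets tested, 77 (0.496%) passed limma's moderated test at a Benjamini-Hochberg adjusted p of 0.05. At 24 months 56 were higher (0.361%) and 21 lower (0.135%), for 36 and 21 genes, and 15 of the 77 had no single gene symbol. The median log2 difference over all tested probe sets was 0.04, and that of the 77 ranged in size from 0.41 to 2.91 with a median of 0.95. Every 24-month array lay above every 6-month array in 35 of the 56 higher ones (0.573% of all tested did so), and below in 11 of the 21 lower ones (0.271% of all tested). The unadjusted p was under 0.05 for 2132 probe sets. How many of all probe sets had a difference above 0 was not counted. Genes of a list need not vary independently. In a principal component analysis, a summary of joint variation, component 1 held 68.4% of the variance of the 18 FBN aorta arrays. The counts moved with the arrays used: without the 3 fat-rich arrays 33 were higher and 20 lower, without 24-month array 1 alone 247 and 147, and without the mass term 11 and 5.

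The largest rise among the 15 genes named for it belonged to Nnat, neuronatin, an imprinted gene for a small membrane protein of the endoplasmic reticulum. Its signal was 8248 to 13288 in 24-month arrays (median 9243), against 1239 to 3881 in 6-month arrays (median 1580). The lowest 24-month array was above the highest 6-month array, and the difference was 2.38 ± 0.26 on the log2 scale (5.21-fold, SE, limma adjusted p = 0.00111). Sgce, the epsilon sarcoglycan and another imprinted gene, also had no overlap, with 2296 to 2949 at 24 months (median 2655) against 1268 to 2087 at 6 months (median 1781), and rose by 0.60 ± 0.11 (adjusted p = 0.0261). Of the 12 imprinted genes tested these 2 rose and 0 fell, against 0.361% and 0.135% of all probe sets, and the list's median difference was 0.17. The call of Sgce ended without the mass term (adjusted p = 0.135), without the 3 fat-rich arrays (adjusted p = 0.0563), with only the 24- and 6-month arrays, and in 5 of the 12 fits that left out 1 array. H19, an imprinted RNA of fetal tissues, differed by -0.93 (adjusted p = 0.32) and its neighbour Igf2 by -0.05 (adjusted p = 0.924).

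Cpeb1, which binds the tails of messenger RNAs and controls their translation, had the tightest 6-month group of the strongly risen genes. It measured 457 to 982 at 24 months (median 746) against 183 to 252 at 6 months (median 240.0), again without overlap, a difference of 1.61 ± 0.19 (3.06-fold, adjusted p = 0.00137). Each 6-month value lay below 281.95, the signal that a probe set's mean over FBN aorta arrays had to reach for testing. Cpeb1 was thus tested only through its older arrays. Detection above background was not analysed for its narrow 6-month group. Tfpi, which blocks the start of coagulation by tissue factor, had 1792 to 10949 at 24 months (median 3273) and 603 to 1317 at 6 months (median 854). The groups did not overlap, although the 24-month arrays spread widely among themselves, and Tfpi rose by 2.13 ± 0.40 (4.39-fold, adjusted p = 0.0251). Its other probe set rose as well, by 2.36 ± 0.40 (adjusted p = 0.0122). Without the 3 fat-rich arrays the difference was 1.64 and lost the call (adjusted p = 0.107). Tfpi was the 1 called gene of 10 tested in the coagulation and fibrinolysis list, whose median was 0.40. Of all probe sets 0.361% were called higher. Procr, the endothelial receptor of protein C, differed by 1.01 (adjusted p = 0.0907) and tissue factor itself, F3, by 0.19 (adjusted p = 0.868).

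Fgf1, a fibroblast growth factor that acts on adipocytes and on endothelium, had 2365 to 3815 at 24 months (median 3356) against 1086 to 2199 at 6 months (median 1651). The groups did not overlap, the rise was 1.07 ± 0.16 (2.10-fold, adjusted p = 0.00318), and its other probe set rose by 0.95 ± 0.20 (adjusted p = 0.0408). Of 13 growth factors and activins tested, Fgf1 alone was called, while 0.361% of all probe sets were called higher. Slc6a6, the taurine transporter, rose by 1.09 ± 0.16 (adjusted p = 0.00318), with 3654 to 6113 at 24 months (median 5502) and 1663 to 3980 at 6 months (median 2341), and a single 6-month array exceeded the lowest 24-month array. Its other probe set rose by 1.11 ± 0.22 (adjusted p = 0.0276).

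Ccnd1, cyclin D1, which carries cells into division, rose by 1.37 ± 0.26 on 1 probe set (adjusted p = 0.0255), from which it is named. Its other 2 probe sets differed by 0.54 (adjusted p = 0.254) and 0.42 (adjusted p = 0.205), in the same direction but not called, so the probe sets differ in size. Rapgef4, the exchange factor Epac2 that cyclic AMP activates, rose by 1.32 ± 0.26 (adjusted p = 0.0292). Its 6-month median of 197 lay below the filter signal of 281.95. Tmem182, a membrane protein of muscle and fat, rose by 1.54 ± 0.30 (adjusted p = 0.0275). Cpxm2, a carboxypeptidase-like protein of the matrix, rose by 1.78 ± 0.37 (adjusted p = 0.0408). Among 14 matrix proteases and inhibitors Cpxm2 was the 1 called gene, while 0.361% of all probe sets were called higher. Its 24-month arrays held 930 in array 1 and more than the highest 6-month value, 1794, in the other 5. The other called genes that rose numbered 19, by 0.42 to 1.07.

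**Figure D2:**
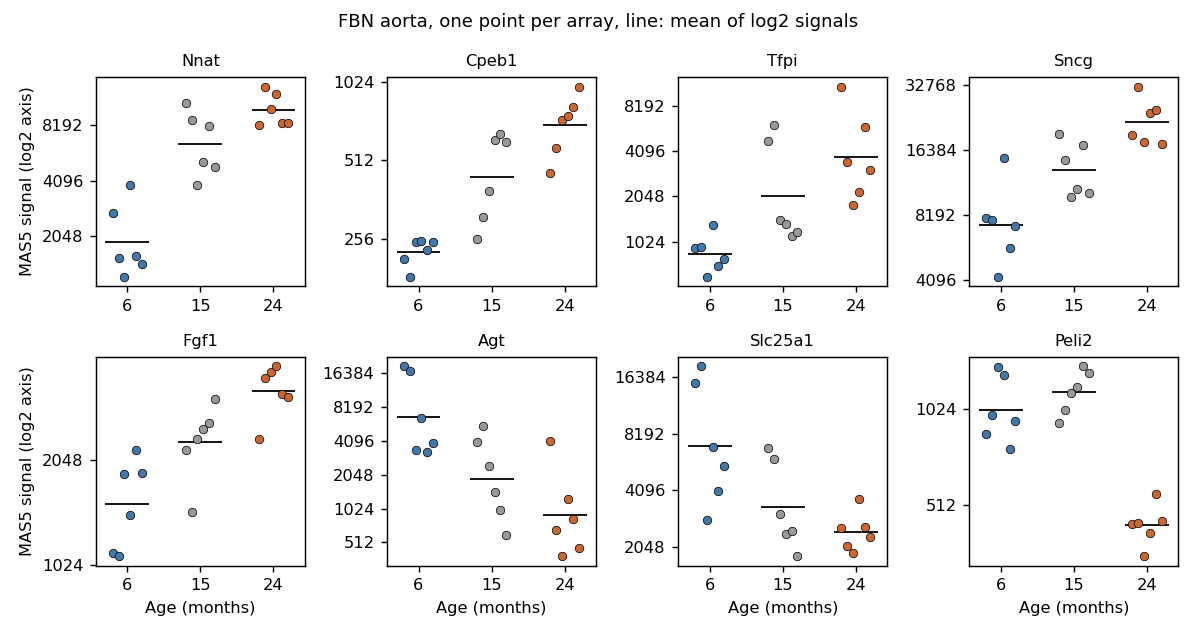
MAS5 signal, on a log2 axis, of 8 called genes in each FBN aorta array at 6, 15 and 24 months; the line is the mean of the log2 signals. Nnat, Cpeb1, Tfpi, Sncg and Fgf1 have every 24-month array above every 6-month array, Peli2 every one below, while Agt and Slc25a1 overlap in their highest 24-month and lowest 6-month arrays.

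Agt, angiotensinogen, from which angiotensin peptides are cut and which brown fat also makes, showed the largest fall. It measured 386 to 4109 at 24 months (median 744) and 3241 to 18904 at 6 months (median 5240). A single 24-month array, the fat-rich array 1, reached into the 6-month range. Agt fell by 2.91 ± 0.40 (0.133 of the 6-month level, adjusted p = 0.00212), and without the 3 fat-rich arrays it fell by 3.01 (adjusted p = 0.00153). Without the mass term its difference was -2.92 but not called (adjusted p = 0.101). Of 6 genes tested in the renin-angiotensin list, Agt was the only one called, while 0.135% of all probe sets were called lower. The converting enzyme Ace differed by 0.71 (adjusted p = 0.174) and the angiotensin receptor genes Agtr1a and Agtr1b by 0.10 (adjusted p = 0.91) and 0.92 (adjusted p = 0.33).

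Peli2, which attaches ubiquitin downstream of Toll-like receptors, had 353 to 552 at 24 months (median 449) against 768 to 1386 at 6 months (median 959). No arrays overlapped, and Peli2 fell by 1.20 ± 0.16 (adjusted p = 0.00186) on this probe set, while the other, brighter one differed by 0.02 (adjusted p = 0.955). A similar split was seen for Spag9, a scaffold of stress kinases, which fell by 0.93 ± 0.16 on 1 probe set (adjusted p = 0.0152) and differed by 0.37 and -0.11 on its other 2 (adjusted p = 0.118 and 0.849). Wbp1l fell by 1.03 ± 0.17 (adjusted p = 0.0113), with differences of -0.04 and -0.34 on its other 2 probe sets (adjusted p = 0.913 and 0.198). Nfia, a transcription factor of the nuclear factor I family, fell by 0.77 ± 0.13 (adjusted p = 0.00918), and its other probe sets differed by -0.23 each (adjusted p = 0.285 and 0.419). Dyrk2, a protein kinase, fell by 0.98 ± 0.21 (adjusted p = 0.046), while its other 3 probe sets, all brighter, differed by -0.67, -0.25 and -0.22 (adjusted p = 0.0794, 0.732 and 0.594). The called Dyrk2 probe set had a 24-month median of 258, below the filter signal of 281.95. In each of these 5 genes the called probe set was thus not matched in size by the gene's other tested ones.

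Gnaq, the G-protein subunit through which receptors for angiotensin and noradrenaline contract smooth muscle, fell by 1.17 ± 0.22 (adjusted p = 0.0275). Its 24-month arrays held 135 to 418 (median 171) and its 6-month arrays 280 to 609 (median 492), with overlap. The 24-month median of Gnaq lay below the filter signal of 281.95. Nrep, a neuronal and myofibroblast protein, fell by 1.26 ± 0.26 (adjusted p = 0.0408), and its 6-month arrays spread from 1907 to 11774 around 24-month arrays of 2241 to 3071. Tfeb, the master regulator of lysosomal genes, fell by 0.77 ± 0.16 (adjusted p = 0.0363), with every 24-month array below every 6-month array. The heat shock partners Fkbp4, a cochaperone of Hsp90 and steroid receptors, and Dnaja4, a cochaperone of Hsp70, fell by 0.86 ± 0.14 (adjusted p = 0.0109) and 0.72 ± 0.14 (adjusted p = 0.0275). Of 11 chaperone genes in the heat shock and unfolded protein list, which holds neither, 0 were called, 10 had differences below 0 and the median was -0.20. The organic cation transporter Slc22a3 fell by 0.86 ± 0.18 (adjusted p = 0.0393). The other 6 called genes that fell did so by 0.41 to 0.69.

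Genes of the circadian clock were a group of their own among the calls. The clock is a loop in which Bmal1 and Clock drive the period genes and the nuclear receptors Nr1d1 and Nr1d2 through E-boxes, and the products shut the drivers down. The labels give no time of day for tissue collection, and its part in these values was not tested. Of 19 clock genes tested, 3 rose and 1 fell, against 0.361% and 0.135% of all probe sets, and the list's median difference was 0.25. Per3, a period gene, had 535 to 2395 at 24 months (median 1362) and 72.5 to 945 at 6 months (median 306), and rose by 2.12 ± 0.43 (adjusted p = 0.0363). In deposit order its 24-month arrays held 535, 813, 1124, 1600, 2391 and 2395. Its 6-month arrays held 165, 72.5, 199, 414, 945 and 686, so later arrays were mostly higher at both ages. BN aortas of 24 months, at 2405, 2520, 713, 902, 2109 and 2160, did not have this order. What the order reflects was not tested. Nr1d2, the repressor REV-ERB beta, had 2716 to 6639 at 24 months (median 4626) against 1071 to 2539 at 6 months (median 1954), without overlap. It rose by 1.33 ± 0.24 (adjusted p = 0.0206), and its other probe set by 1.39 ± 0.23 (adjusted p = 0.00918). Bhlhe41, the E-box repressor DEC2, had 786 to 2195 at 24 months (median 1207) and 287 to 883 at 6 months (median 453), and rose by 1.46 ± 0.20 (adjusted p = 0.00212). Only the highest 6-month array of Bhlhe41 exceeded its lowest 24-month array. The highest values of Bhlhe41 were in arrays 5 and 6 at both ages, as were those of Nr1d2 at 24 months. Nfil3, the D-box repressor E4BP4, went the other way, with 998 to 1898 at 24 months (median 1684) against 2933 to 7154 at 6 months (median 4527) and no overlap. It fell by 1.59 ± 0.21 (0.333 of the 6-month level, adjusted p = 0.00204).

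The clock genes that were not called differed in both directions. Dbp, the D-box activator, differed by 1.48 (adjusted p = 0.209), Nr1d1, REV-ERB alpha, by 0.77 (adjusted p = 0.292) and Per2 by 0.57 (adjusted p = 0.36). Bmal1 differed by -1.34 (adjusted p = 0.229), its partner Npas2 by -1.08 (adjusted p = 0.159) and Clock by -0.12 (adjusted p = 0.671). The call of Per3 ended without the 3 fat-rich arrays (1.91, adjusted p = 0.0772), where Nr1d2, Bhlhe41 and Nfil3 kept theirs (adjusted p = 0.00932, 0.00949 and 0.011). Without the mass term Nfil3 was the 1 called of these 4.

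**Figure D3:**
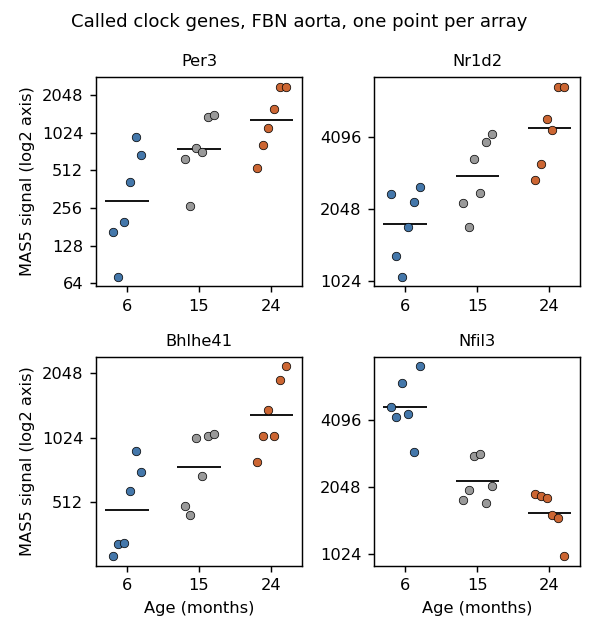
MAS5 signal, on a log2 axis, of the 4 called clock genes in each FBN aorta array at 6, 15 and 24 months; the line is the mean of the log2 signals. Nfil3 has every 24-month array below every 6-month array and Nr1d2 every one above, while Per3 and Bhlhe41 overlap.

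The promoters of the 4 called clock genes are shown because these genes answer the same loop, with matches to its motifs in capitals. RefSeq sequences of assembly GRCr8 run from 250 bases before to 50 after each gene's start, in the direction of the gene. Both strands were searched for the E-box CACGTG, the D-box TTATGTAA and the ROR and REV-ERB site AGGTCA, and no matches overlapped. Bhlhe41 (chr4:180569306-180569605, minus strand) held 1 E-box and Nr1d2 (chr15:9954784-9955083, plus strand) 1 ROR and REV-ERB site. Per3 (chr5:166777751-166778050, minus strand) and Nfil3 (chr17:12432126-12432425, plus strand) held none of the 3 in this window.
Bhlhe41: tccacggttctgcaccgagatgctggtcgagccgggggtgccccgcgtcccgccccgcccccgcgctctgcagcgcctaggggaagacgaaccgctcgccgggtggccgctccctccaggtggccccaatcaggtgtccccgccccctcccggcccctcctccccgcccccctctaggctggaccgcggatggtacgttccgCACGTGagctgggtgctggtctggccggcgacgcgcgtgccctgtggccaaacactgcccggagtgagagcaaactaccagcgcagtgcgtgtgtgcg
Nr1d2: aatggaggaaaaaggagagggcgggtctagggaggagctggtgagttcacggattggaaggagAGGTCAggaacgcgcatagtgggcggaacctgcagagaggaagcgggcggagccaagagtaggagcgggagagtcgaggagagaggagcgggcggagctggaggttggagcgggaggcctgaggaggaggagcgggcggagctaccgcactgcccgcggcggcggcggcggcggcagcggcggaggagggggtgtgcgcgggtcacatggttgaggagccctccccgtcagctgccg
Per3: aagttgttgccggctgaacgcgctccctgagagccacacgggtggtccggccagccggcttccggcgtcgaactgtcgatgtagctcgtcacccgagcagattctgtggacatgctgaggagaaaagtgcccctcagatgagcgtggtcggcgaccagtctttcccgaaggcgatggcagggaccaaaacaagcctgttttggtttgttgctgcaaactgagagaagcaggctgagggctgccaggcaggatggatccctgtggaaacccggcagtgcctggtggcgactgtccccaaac
Nfil3: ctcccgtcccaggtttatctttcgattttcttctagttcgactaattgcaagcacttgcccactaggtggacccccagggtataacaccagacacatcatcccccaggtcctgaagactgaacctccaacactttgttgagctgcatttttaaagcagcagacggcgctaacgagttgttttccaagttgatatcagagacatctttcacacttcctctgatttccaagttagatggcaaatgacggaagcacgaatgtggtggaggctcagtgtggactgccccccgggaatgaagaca

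Of all 33469 rat promoters listed, 6.42% held the E-box, 0.89% the D-box and 16.18% the ROR and REV-ERB site. Of the 17 tested clock genes with an entry, 4 held the E-box (Bhlhe40, Bhlhe41, Nr1d1 and Tef), 1 the D-box (Per2) and 3 the ROR and REV-ERB site (Bmal1, Nr1d2 and Usp2). A match is a run of letters, and the arrays measured no binding.

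Genes that make fat from glucose mostly had differences below 0, and 1 fell. That was Slc25a1, the citrate carrier that brings carbon for fatty acid synthesis out of mitochondria. It had 1894 to 3671 at 24 months (median 2438) and 2850 to 18708 at 6 months (median 6247). The 2 highest 6-month values came from the fat-rich arrays 1 and 2, and the highest 24-month value from array 4, the heaviest sample of that age. Slc25a1 fell by 1.52 ± 0.27 (0.348 of the 6-month level, adjusted p = 0.0196), and without the 3 fat-rich arrays the difference was -1.12 (adjusted p = 0.0986). Of the 23 fatty acid and triglyceride synthesis genes tested, 0 rose and 1 fell, against 0.361% and 0.135% of all probe sets. In this list 21 had differences below 0 and the median was -0.50, against 0.04 over all probe sets. Fatty acid synthase Fasn differed by -0.99 (adjusted p = 0.0524), malic enzyme Me1 by -1.32 (adjusted p = 0.107), the elongase Elovl6 by -1.74 (adjusted p = 0.174) and citrate lyase Acly by -0.93 (adjusted p = 0.196). The regulator Srebf1 differed by 0.10 (adjusted p = 0.873).

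In glycolysis 1 of 13 genes fell, against 0.135% of all probe sets. The differences of all 13 lay below 0, with a median of -0.31, against 0.04 over all probe sets. Pfkl, the liver form of phosphofructokinase, had 661 to 1239 at 24 months (median 964) and 1082 to 3244 at 6 months (median 1394), and fell by 0.86 ± 0.18 (adjusted p = 0.0449). Its platelet form Pfkp differed by -1.04 (adjusted p = 0.0549). The call of Pfkl ended without the 3 fat-rich arrays (-0.71, adjusted p = 0.109). Of 15 cholesterol synthesis genes 0 were called, 14 had differences below 0 and the median was -0.38, with squalene synthase Fdft1 at -0.70 (adjusted p = 0.174). Of 21 fatty acid oxidation genes 0 were called and the median was -0.09. Slc27a1, a fatty acid transporter, had every 24-month array (2417 to 2825) below every 6-month array (3009 to 18058) but was not called (-1.32, adjusted p = 0.0664). Of 16 genes of branched-chain amino acid breakdown 0 were called and the median was -0.18, with the dehydrogenase Acadsb at -1.35 (adjusted p = 0.0603).

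The markers of fat itself were not called. Of 9 brown adipocyte genes 0 passed and the median was -0.20, with Ucp1 at 0.03 (adjusted p = 0.955) and Pank1, which starts coenzyme A synthesis, at -0.71 (adjusted p = 0.414). The score of that list spanned 11.80 to 13.71 at 24 months and 12.22 to 14.19 at 6 months. Of 12 general adipocyte genes 0 passed and the median was 0.11, with the glucose transporter Slc2a4 at -0.58 (adjusted p = 0.236). Whether the amount of fat took part in the lower lipid synthesis values beyond what the mass term removes was not tested. With the brown adipocyte score in place of mass, Slc25a1 and Pfkl were called. Slc27a1 and Acadsb were called there too (limma adjusted p = 0.035 and 0.023), while Fdft1, Pank1 and Slc2a4 were not. Without the mass term neither Slc25a1 nor Pfkl was called (limma adjusted p = 0.227 and 0.347). Their differences were then -1.53 and -0.86, against -1.52 and -0.86 with it.

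Most immune cell genes had differences above 0, again with few calls. Gpnmb, a glycoprotein of lipid-laden macrophages, had 892 to 2279 at 24 months (median 1284) and 258 to 951 at 6 months (median 523), and rose by 1.38 ± 0.28 (adjusted p = 0.0363). It was the 1 called of 17 macrophage genes, all of which had differences above 0, with a median of 0.47. Over all probe sets 0.361% rose and the median was 0.04, and the share above 0 was not counted. Cd163, the haemoglobin scavenger receptor, differed by 0.89 (adjusted p = 0.193), Fcer1g, an Fc receptor subunit, by 0.67 (adjusted p = 0.0924), and Aif1, a calcium-binding protein of macrophages, by 0.83 (adjusted p = 0.224). The macrophage score spanned 10.12 to 11.15 at 24 months and 8.96 to 10.88 at 6 months, so the ages overlapped. Of 10 inflammation genes 0 were called and the median was 0.27, with the adhesion molecule Vcam1 at 1.18 (adjusted p = 0.123). Among 7 class II antigen presentation genes 0 were called (median 0.38), with RT1-Da at 0.74 (adjusted p = 0.137). Of the T and NK cell list 1 gene and of the B and plasma cell list 0 genes were bright enough to test, and of the erythrocyte list 2, of which 0 were called.

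Of 16 interferon-stimulated genes 1 rose and 0 fell, 15 had differences above 0 and the median was 0.35. Over all probe sets 0.361% rose, 0.135% fell and the median was 0.04. Gbp2, a guanylate-binding protein, had 952 to 1984 at 24 months (median 1447) against 370 to 933 at 6 months (median 773). The groups did not overlap, and Gbp2 rose by 1.02 ± 0.21 (adjusted p = 0.0393). Mx1 differed by 1.12 (adjusted p = 0.127), Oas1a by 0.88 (adjusted p = 0.162), Rsad2 by 0.80 (adjusted p = 0.146) and Irf7 by 0.70 (adjusted p = 0.0955), and Bst2, an antiviral tether, by -0.49 (adjusted p = 0.0837). Of 13 class I antigen presentation genes 0 were called (median 0.24), with the immunoproteasome subunit Psmb8 at 0.66 (adjusted p = 0.0506). Psmb8 was called with the brown adipocyte score in place of mass (limma adjusted p = 0.0242). The call of Gbp2 ended without the 3 fat-rich arrays (1.11, adjusted p = 0.0778) and without the mass term (adjusted p = 0.0727).

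The promoter of Gbp2 is shown as that of the 1 called interferon-stimulated gene, from RefSeq assembly GRCr8 (chr2:234005477-234005776, plus strand). The capitals mark a match, on the opposite strand, to the interferon response element, spelt GAAA, any 2 bases, GAAA, and searched on both strands. It was found in 3.92% of all promoters and in 8 of the 13 tested interferon-stimulated genes with an entry: Bst2, Gbp2, Ifi27, Ifi44, Ifi44l, Irf7, Oas1a and Rsad2.
Gbp2: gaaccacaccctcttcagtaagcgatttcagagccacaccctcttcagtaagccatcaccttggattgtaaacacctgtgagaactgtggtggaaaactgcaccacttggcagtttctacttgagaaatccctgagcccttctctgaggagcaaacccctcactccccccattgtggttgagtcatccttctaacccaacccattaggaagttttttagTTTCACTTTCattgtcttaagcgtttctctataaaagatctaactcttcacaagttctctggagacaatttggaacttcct

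The vessel wall's own genes gave no calls in most lists. Of 17 contractile genes of smooth muscle 0 were called, although all 17 differences lay above 0. Their median was 0.40, against 0.04 over all probe sets. Tagln, which binds actin filaments, had 30352 to 56466 at 24 months (median 50895) and 17384 to 50994 at 6 months (median 42884), a difference of 0.49 (adjusted p = 0.37) that was 0.24 without the 3 fat-rich arrays. Of 23 collagen and elastic matrix genes 0 were called and the median was 0.05, with fibronectin Fn1 at 0.79 (adjusted p = 0.118). Comp, a cartilage matrix protein, differed by 1.88 ± 0.45 (adjusted p = 0.0664), with 633 to 4531 at 24 months (median 2820) and 161 to 1251 at 6 months (median 1024). With the brown adipocyte score in place of mass, Fn1 and Comp were called (limma adjusted p = 0.0441 and 0.0148), while Tagln, Pecam1 and Gsn were not. Of 11 calcification and cartilage genes 0 were called and the median was 0.38, although Ibsp, a bone sialoprotein, differed by 2.02 (adjusted p = 0.143) and osteopontin, Spp1, by 1.55 (adjusted p = 0.0955). Of 12 endothelial genes 0 were called (median 0.04), with Pecam1 at 0.52 (adjusted p = 0.187), and of 8 fibroblast genes 0 were called (median 0.05), with gelsolin, Gsn, at 0.10 (adjusted p = 0.724).

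Among functions shared by many cells, 0 of 16 oxidant and antioxidant genes were called (median 0.08). Sod3, the extracellular superoxide dismutase, had every 24-month array (15397 to 21102) below every 6-month array (22410 to 35962) at a difference of -0.46 (adjusted p = 0.0907). Sod3 was called with the brown adipocyte score in place of mass (limma adjusted p = 0.0459). Of 10 cell cycle and senescence genes 0 were called (median 0.03), on a probe set of Ccnd1 other than its called one. Of 16 adrenergic receptor and cyclic AMP signalling genes 0 were called (median -0.03), with the kinase subunit Prkaca at -0.50 (adjusted p = 0.196). In the heat shock list Hsp90ab1 differed by -0.29 (adjusted p = 0.293).

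Genes known from nerve and striated muscle were among the rises. Sncg, gamma-synuclein, found in peripheral neurons and also in white adipocytes, had 17442 to 32372 at 24 months (median 21818) against 4232 to 15120 at 6 months (median 7506). The groups did not overlap, and Sncg rose by 1.59 ± 0.25 (3.01-fold, adjusted p = 0.00787). It was the 1 called of 3 neuronal genes bright enough to test of 11 listed, while 0.361% of all probe sets were called higher. The neuronal ubiquitin hydrolase Uchl1 differed by 1.65 (adjusted p = 0.209) and the sympathetic neuropeptide Npy by 0.10 (adjusted p = 0.909). Of 4 Schwann cell genes 0 were called (median 0.20), with S100b at 0.75 (adjusted p = 0.352), and of 4 mesothelial genes 0 were called (median -0.27), with mesothelin, Msln, at -0.77 (adjusted p = 0.404).

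Lrrc39, a protein of the M-band of striated muscle, rose by 1.18 ± 0.22 (adjusted p = 0.0255), with 498 to 1213 at 24 months (median 914) and 262 to 536 at 6 months (median 379). Only 24-month array 1 lay within the 6-month range. It was the 1 called of 8 skeletal and cardiac muscle genes, whose median was -0.70, while 0.361% of all probe sets were called higher. The muscle creatine kinase Ckm and myoglobin, Mb, differed by -1.94 (adjusted p = 0.285) and -1.76 (adjusted p = 0.201). Ckm was 74.8 to 1257 at 24 months and 435 to 17592 at 6 months, and its highest value was in 6-month array 1, whose striated muscle score of 12.63 stood above 9.33 to 10.49 in the other 6-month arrays. The score was 9.35 to 10.44 at 24 months.

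**Figure D4:**
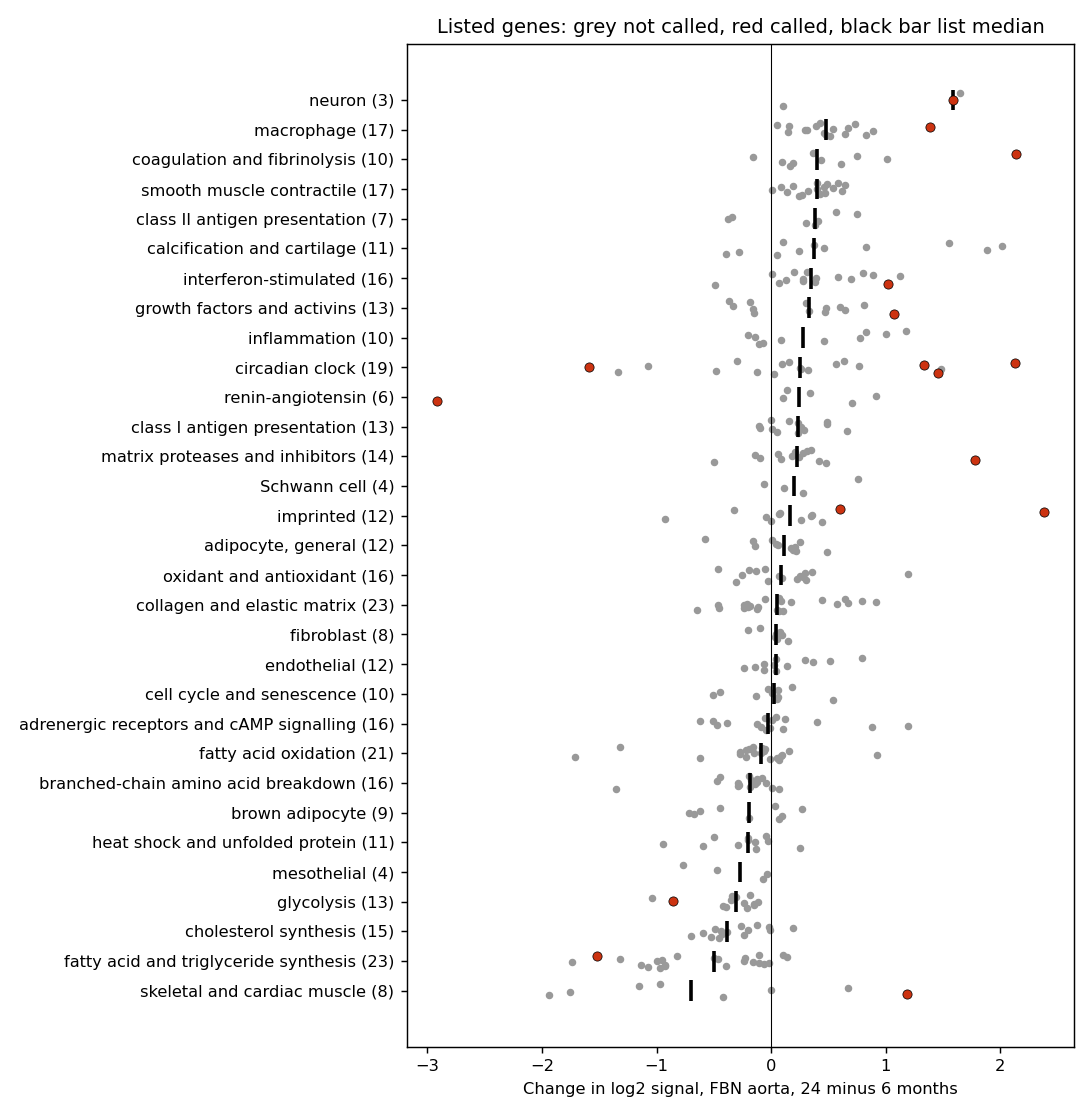
Difference in log2 signal, 24 minus 6 months, of each tested gene (grey: not called, red: called) in the 31 lists with 3 or more tested genes, ordered by the list median (black bar); the number tested stands after each name. Calls are scattered as 1 gene in most lists, with 4 in the circadian clock list and 2 in the imprinted list, and the fatty acid and triglyceride synthesis, cholesterol synthesis and glycolysis medians lie to the left of 0.

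The 15-month FBN aortas share the fit and their values are given beside the others. The mean 15-month signal lay between the 6- and 24-month means for all 15 named rises and for 13 of the 15 named falls. These genes were picked for large differences between 6 and 24 months, which favours a mean in between. The share over all probe sets was not counted. Between 6 and 15 months 2 probe sets were called higher and 0 lower (0.0129% in either direction, 784 at an unadjusted p under 0.05), and Nnat was 1 of them (1.83, adjusted p = 0.0219). Its 15-month arrays held 3873 to 10885 (median 6614). Between 15 and 24 months 0 were called higher and 4 lower (0.0258% in either direction, 907 at an unadjusted p under 0.05), among them Peli2 (-1.37, adjusted p = 0.00155). Peli2 had 924 to 1391 in the 15-month arrays (median 1174), above the 24-month range and overlapping the 6-month one. Dyrk2 likewise had 371 to 850 at 15 months (median 612), a 24 minus 15 month difference of -1.20 (adjusted p = 0.0891).

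BN aortas of the same ages (6 arrays each) were set beside these genes. The BN values come from a fit of all 35 aorta arrays with mass, in which each strain had its own weight. Of all 15521 probe sets 644 were called higher in BN (4.15%) and 479 lower (3.09%). Of the 77 probe sets called in FBN aorta 72 had the same sign in BN (93.5%), against 66.5% of all tested, and of the named genes 12 of 15 rises and 7 of 15 falls were also called there. Nnat rose by 2.15 ± 0.25 (limma adjusted p = 2.87e-06) in BN, with 5371 to 9177 at 24 months and 1148 to 2924 at 6 months. Cpeb1 rose by 1.85 ± 0.20 (adjusted p = 1.49e-06) and Tfpi by 1.94 ± 0.28 (adjusted p = 4.66e-05) in BN, and Agt fell by 1.70 ± 0.31 (adjusted p = 0.000966). Slc25a1 fell by 1.40 ± 0.21 in BN (adjusted p = 7.51e-05), where the brown adipocyte score was 13.16 to 13.93 at 24 months and 13.61 to 13.85 at 6 months, and its signal was 5397 to 11667 at 24 months and 15821 to 25551 at 6 months. Vcam1, Comp and Slc27a1, not called in FBN, were called in BN (1.43, 1.53 and -1.14, with adjusted p of 0.000397, 0.00201 and 0.00423). Their FBN differences, from the fit of FBN arrays alone, were 1.18, 1.88 and -1.32. The test of the difference between the strains passed for none of them.

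The difference between the strains' age changes was tested directly, and 3 of 15521 probe sets (0.0193%) passed. At an unadjusted p under 0.05 there were 1171. Spag9 fell in FBN and differed by 0.25 ± 0.13 in BN (adjusted p = 0.258), a difference of -1.18 ± 0.21 between the strains (adjusted p = 0.022). In FBN the named probe set had 279 to 463 at 24 months and 502 to 855 at 6 months, and in BN 609 to 902 at 24 months and 547 to 664 at 6 months. Nfia differed by -0.75 ± 0.13 between the strains (adjusted p = 0.022), with a BN change of -0.02 (adjusted p = 0.896). Cav2, a caveolar coat protein, differed by 0.96 ± 0.18 between the strains (adjusted p = 0.0296). It was 8102 to 15846 at 24 months and 8306 to 12908 at 6 months in FBN (0.06, adjusted p = 0.884), and 6895 to 9835 at 24 months and 13487 to 16758 at 6 months in BN, where it fell by 0.90 ± 0.11 (adjusted p = 4.1e-06). The other 3 tested Cav2 probe sets were not called in FBN.

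Other named genes were not called in BN, and the difference between the strains did not pass for the 4 given here. Peli2 changed by -0.19 ± 0.14 in BN (adjusted p = 0.465), and the strains differed by -1.01 ± 0.23 (adjusted p = 0.0831). The low level of this Peli2 probe set was also found in the 5 BN aortas of 15 months, which had 288 to 594 (median 526), against 957 to 1476 in BN at 24 months and 1052 to 1699 at 6 months. The BN median at 15 months lay below both other ages in Peli2, Gnaq, Dyrk2 and Spag9, 4 of the 15 named falls. Of the 15 named rises 0 showed this. The 15-month median lay above both other ages in 3 falls, Wbp1l, Tfeb and Dnaja4, and in 1 rise, Nr1d2. How often either occurs over all probe sets was not counted. In Peli2 and Dyrk2 every 15-month BN array lay below every other BN array. Tfeb changed by 0.16 ± 0.13 in BN (adjusted p = 0.494), a difference of -0.93 ± 0.21 (adjusted p = 0.0831). Lrrc39 changed by 0.13 ± 0.17 in BN (adjusted p = 0.718), a difference of 1.06 ± 0.28 (adjusted p = 0.168). Per3 changed by 1.16 ± 0.43 in BN (adjusted p = 0.0952), a difference of 0.96 ± 0.70 (adjusted p = 0.866). With the poly-A spike-in signal added to the fit 0 probe sets passed as different between the strains, and with the brown adipocyte score in place of mass 52 did.

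**Figure D5:**
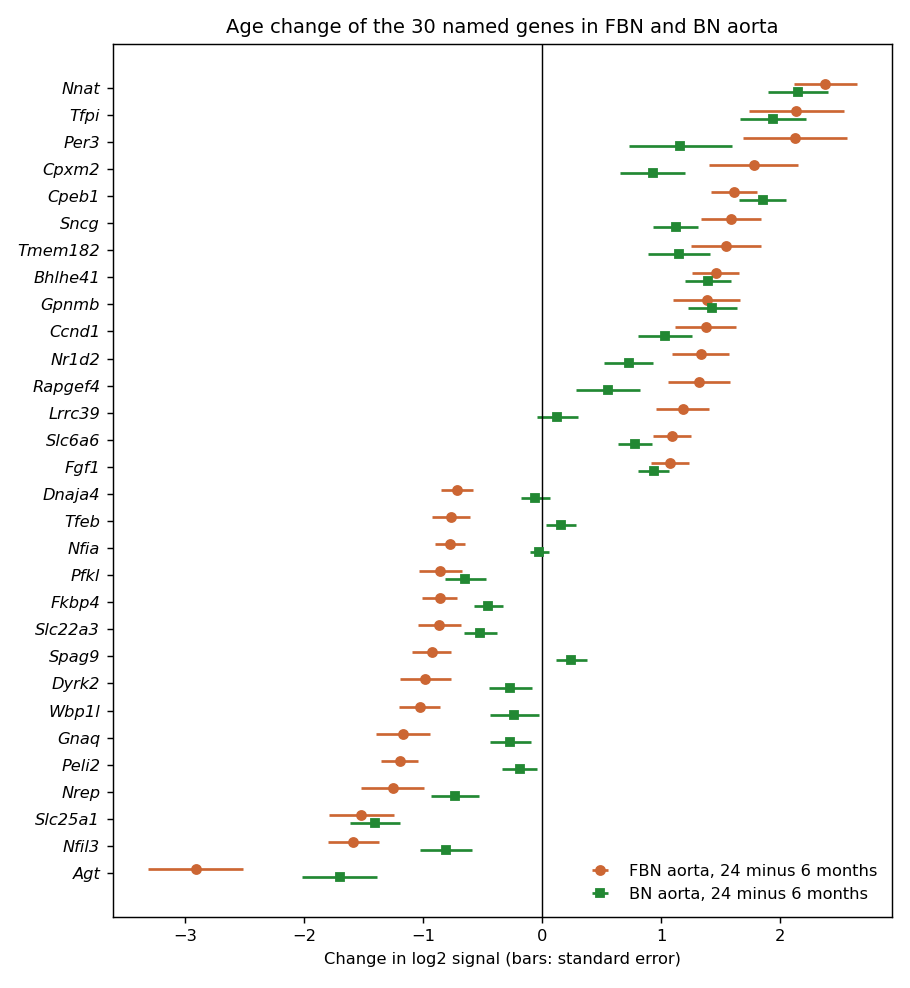
Change in log2 signal, 24 minus 6 months, of the 30 named genes in FBN aorta (orange circles) and BN aorta (green squares); bars are standard errors. Of the 11 genes not called in BN, Per3 and Rapgef4 have BN changes of 1.16 and 0.55, and Lrrc39, Peli2, Gnaq, Wbp1l, Dyrk2, Spag9, Nfia, Tfeb and Dnaja4 lie between -0.27 and 0.25; Nfia and Spag9 passed the test of the difference.

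Mesenteric arteries, with brown adipocyte scores of 7.90 to 8.53 at 24 months and 7.85 to 8.41 at 6 months, are given as ranges over the 12 arrays of each age, both strain labels together and without a test. Cpeb1 had 621 to 2002 at 24 months (median 1203) and 225 to 913 at 6 months (median 431), ranges that overlapped. Agt had 219 to 2439 at 24 months (median 1322) and 1126 to 4785 at 6 months (median 3113). Bhlhe41 had medians of 2590 and 1154 and Nfil3 of 701 and 1402 at 24 and 6 months, in the same order as in the FBN aorta. Nnat, by contrast, had medians of 7818 at 24 months and 8146 at 6 months, and Slc25a1 of 1615 and 1842 at 24 and 6 months.

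Among the 30 named genes, Nnat, Fgf1 and Nfil3 kept their calls in all 14 other settings, Cpeb1 and Peli2 in the 13 that tested them (both were too dim for the stricter filter on signal), and all 5 in each of the 12 fits that left out 1 array. The other 25 lost theirs at least once, and 0 changed sign. Losses were most frequent without the mass term or with the 24- and 6-month arrays alone (22 genes each). Without the mass term, calls remained only for Nnat, Cpeb1, Sncg, Fgf1, Nfil3, Peli2, Spag9 and Nfia. Without the 3 fat-rich arrays 11 lost theirs: Tfpi, Per3, Tmem182, Gpnmb, Rapgef4, Slc25a1, Dyrk2, Spag9, Slc22a3, Pfkl and Dnaja4. Leaving out 24-month array 5 ended 16 of the 30 calls, 6-month array 6 ended 15, 24-month array 1 and 6-month array 3 ended 0, and each of the other 8 ended 4 to 14.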

How the data were processed

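RNA of 71 vessels was hybridised to Affymetrix rat arrays. The authors deposited linear intensity values, MAS5 signals made with GCOS and MAS5 per the submitters' processing notes (versions not given in the sources used here). Per the values, each array had been scaled to a 2% trimmed mean of about 1000.3, which hides a change in total RNA. No detection calls were used. Signals were log2-transformed without an offset, so changes near background depend on that choice.

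Of 31099 probe sets 57 controls were left out, and 15521 were tested, namely those with a mean log2 signal in FBN aorta of at least the median over probe sets (8.14, a signal of 281.95). Symbols came from the platform's table: 20826 probe sets had 1, 436 several and 9780 none.

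The 18 FBN aorta arrays entered a limma fit of 3 age means plus tissue mass (limma 3.58.1 and statmod 1.5.0 in R 4.3.3), with eBayes trend and robust estimates, two-sided, Benjamini-Hochberg over 15521 probe sets at 0.05. The strain difference used 35 aorta arrays, 6 means, mass and strain weights (FBN 0.789, BN 1.29). Exact permutation tests, or 100000 permutations over 18 or 13 arrays, covered single measures (R, and numpy 2.4.6 for the 13 arrays). The number of arrays limits the precision. Array numbers follow deposit order, and the labels pair no arrays. Some clock genes rose along this order within groups, and the order was not part of the fit. The fit was tested on simulated data with independent noise and no effect of mass or fat. There the changed probe sets it recovered had the right sign, which the check required to pass, so this says little about the real arrays.

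Named genes are the 15 largest rises and 15 largest falls called with 1 symbol, up to 4 called members of each of 34 lists or the member with the smallest p, and up to 5 called genes each way in the strain difference. Other clock, lipid, immune and marker genes given values were chosen after these were seen. Each list gene stands for its brightest tested probe set, and scores average their log2 signals. The comparison, lists and alternatives were chosen with earlier results of these data known.

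Alternatives were quantile normalization, an offset of 50, no filter, a filter at the 75th percentile, plain eBayes, no mass, log2 mass, the brown adipocyte score, array weights, fewer or more arrays in the fit, and each array left out. Leaving out the 3 fat-rich arrays and adding the spike-in signal were added after seeing the data. Figures were drawn with matplotlib 3.10.9.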

Additional observations from a re-analysis of the deposited data

Results flagged for a closer look

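In groups of 6 FBN aorta arrays, 126 sets of values were searched for an array far from the rest, and 11 were found, where chance flags about 5% of groups. Of these, 8 concerned 24-month array 1, the 1 array of that age in the fat-rich set. On the log2 scale its signal was 9.86 for Cpxm2 (11.38 to 12.18 in the other 5), 8.96 for Lrrc39 (9.77 to 10.24), 14.89 for Tagln (15.58 to 15.79), 11.87 for Vcam1 (13.21 to 13.75), 14.38 for Fn1 (15.16 to 15.40) and 9.31 for Comp (11.17 to 12.15), all below the others, and 10.84 for the cholesterol synthesis gene Fdft1 (9.50 to 9.95), above them. Its smooth muscle contractile score was 12.93, against 14.01 to 14.51 in the other 5.

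Psmb8 was 9.82 in 24-month array 6 and 10.35 to 10.51 in the other 24-month arrays. Pecam1 was 10.87 in 6-month array 6 and 11.59 to 11.91 in the other 6-month arrays. The skeletal and cardiac muscle score was 12.63 in 6-month array 1 and 9.33 to 10.49 in the other 6-month arrays.

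Between FBN and BN aorta the age change differed by 0.96 for Cav2, -1.18 for Spag9 and -0.75 for Nfia on the log2 scale, each past limma's test of the difference. The FBN age change of Spag9 and Nfia was carried by 1 of their 3 tested probe sets.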

How the results depend on the processing

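The 77 probe sets called in FBN aorta kept their sign in each setting that tested them, but the number of calls, 56 higher and 21 lower, moved with the settings. There were 11 and 5 without mass, 193 and 120 with the brown adipocyte score in place of mass, 623 and 375 with array weights, 33 and 20 without the 3 fat-rich arrays, 32 and 13 with the spike-in signal added, and 12 and 5 with only the 24- and 6-month arrays. With all aorta arrays sharing 1 spread there were 307 and 191 with mass, and 122 and 62 without. Leaving out 1 array gave 19 to 247 higher and 8 to 147 lower. In all there were 394 calls without 24-month array 1, 232 without 6-month array 3, and 28 to 49 without 6-month arrays 1, 2 or 6 or 24-month arrays 2 to 6. Without 6-month array 4 or 5 there were 94 or 73. The share higher, 72.7%, was lowest among the 14 alternatives at 61.6%, in the fit of all aorta arrays with mass. The 3 calls of the strain difference became 52 with the brown adipocyte score, 39 with array weights, 10 without the fat-rich arrays, 0 with the spike-in signal (1171 at an unadjusted p under 0.05 in the reported fit), and 0 to 19 with 1 array left out. The causes were not tested. The FBN change of Cav2, 0.06, was -0.16 without the fat-rich arrays and -0.060 to 0.14 with 1 array left out. With 1 array left out, the mass difference of -0.067 mg ranged from -2.32 to 1.99, the Gapdh log2 ratio from -0.088 to 0.092 and that of Actb from -0.016 to 0.21. No paired analysis was possible because the labels carry no replicate numbers. Detection above background was not analysed here, so the direction of a small change in a dim probe set is least sure.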
